A study of Mus musculus with 8 samples.

Results

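A group of less studied p53-activated genes was followed in mouse embryonic fibroblasts treated with a DNA-damaging drug. They were listed apart from the best known p53 programmes of cell cycle arrest, apoptosis and DNA repair. The listing is not strict, as Ptprv is also known from p53-induced cell cycle exit. The 9 genes were chosen by name: Zmat3, Phlda3, Zfp365, Abhd4, Cd80, Psrc1, Ephx1, Epha2 and Ptprv. All 9 were among the 30419 gene names of the count table and among the 12255 with enough counts to be tested. RNA of early-passage fibroblasts from E13.5 embryos was sequenced in 8 libraries, in 4 groups of 2 lettered A and B. Mutant cells (Dino loxP/loxP) received 0.2 µg/mL doxorubicin or vehicle for 8 h, and WT cells (Dino+/+) received 0.2 µg/mL doxorubicin or vehicle for 8 h. Dino, which lies close to Cdkn1a, is transcribed into a long noncoding RNA under the control of p53. Its own level was not analysed here, so the labelled genotype was not checked against it. Whether A and B were grown from different embryos or cultures is not stated, and p-values measure the spread between these libraries, which may be technical. For each gene that spread is estimated partly from the other genes.

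The transcription factor p53 is held at a low level in undamaged cells. DNA breaks, such as those left when doxorubicin traps topoisomerase II, stabilise it, and it then binds short paired sequence motifs near its target genes and raises their transcription. In fibroblasts its targets include genes of RNA regulation, lipid and drug metabolism, cell surface signalling and the spindle, and the 9 genes belong to these less studied branches.

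Libraries held between 25482805 and 33285171 counts. Levels are in CPM, the usual count scaled to library size, after TMM normalization, and a count of 0 allows up to 3 counts, or 0.0880 to 0.120 CPM per library, for counting error only. Libraries A and B of a group differed by more than sampling noise: over genes, chi-square divided by its degrees of freedom was 18.2 in WT cells with doxorubicin and 5.43 to 6.16 in the other groups. All 12 fibroblast markers were present, with a summed level of 5356 to 5494 CPM in mutant doxorubicin libraries, 5555 to 5631 CPM in mutant control libraries, 5479 to 5729 CPM in WT doxorubicin libraries and 5580 to 5862 CPM in WT control libraries. By the calls defined below, 1 of the 12 rose with doxorubicin and 5 fell in mutant cells, and 4 rose and 5 fell in WT cells. Among all genes 28.3% and 29.3% rose, and 25.9% and 28.1% fell. Pdgfra had a log2 fold change of -1.81 in mutant and -1.90 in WT cells. With and without doxorubicin, 2 markers were called higher in mutant than in WT cells, Dcn among them. The shares of all genes were 3.92% and 2.75%. In these bulk samples, fewer cells of a type and less RNA per cell cannot be told apart.

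All but Phlda3 rose with doxorubicin in both genotypes. Calls required an adjusted p below 0.05 in edgeR's quasi-likelihood test over all 12255 genes. Of the 9 genes, 8 were higher in mutant cells, where 28.3% of all genes tested were called higher, and 8 were higher in WT cells, where the share was 29.3%. None of the 9 fell, against 25.9% of all genes in mutant cells and 28.1% in WT cells. All 8 rose at least 2-fold, against 12.8% of all genes in mutant cells and 13.3% in WT cells. The median log2 fold change over the 9 genes was 1.88 in mutant cells and 2.07 in WT cells, beside 0.012 and 0.0068 over all genes. There were 7 genes that passed the filter on low counts in all 8 libraries. Ptprv passed it only through the treated libraries, and Cd80 through these and 1 control library, so that a difference was built into their being tested.

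**Figure D1:**
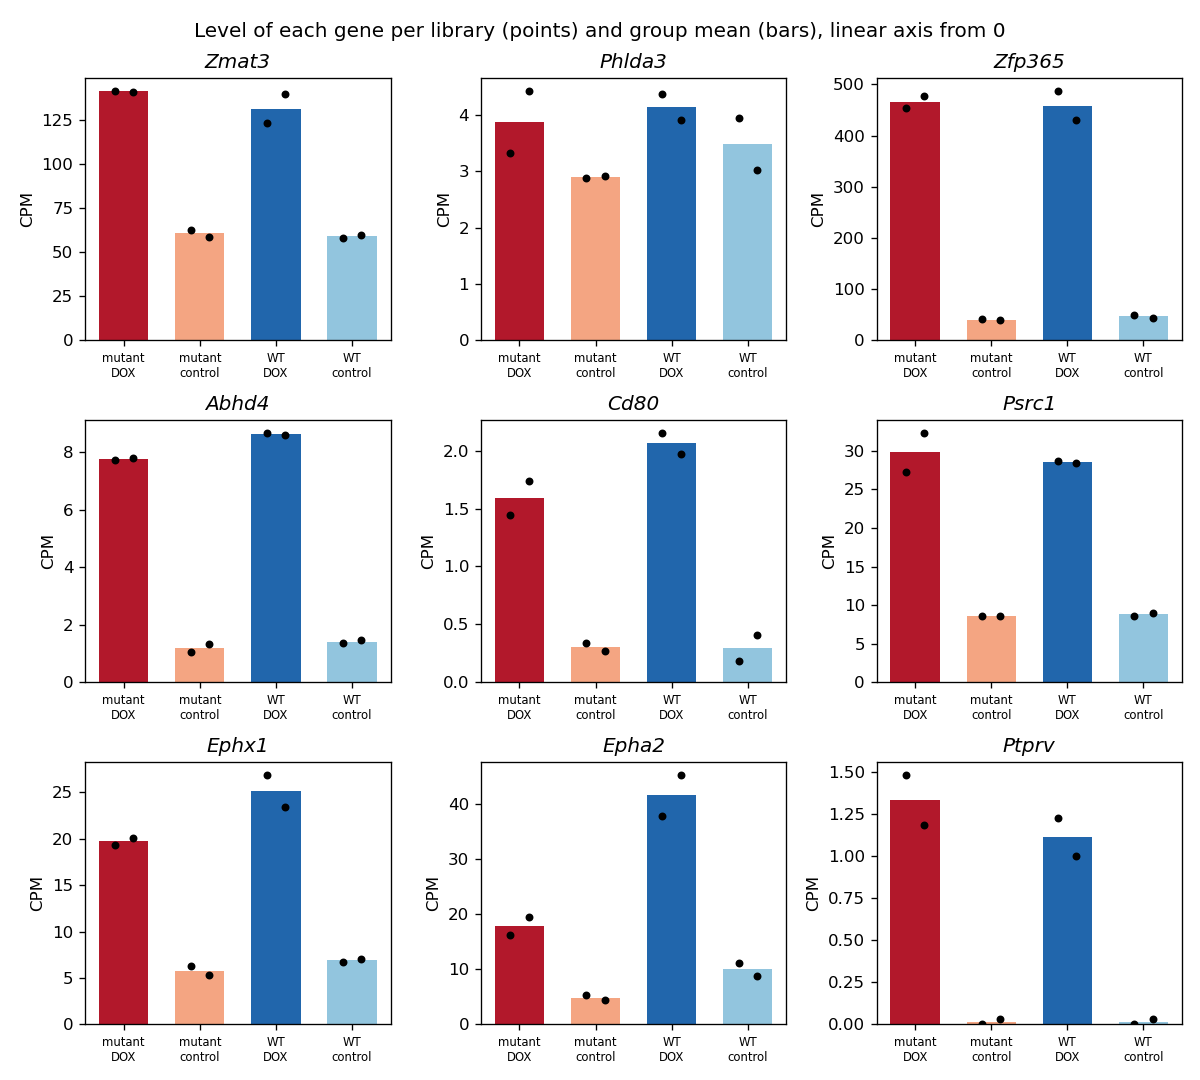
CPM of each of the 9 genes on a linear axis, with a bar for the mean of a group and a point for each of its 2 libraries (A left, B right). In 8 panels both doxorubicin libraries of a genotype stand above both of its control libraries, by the widest margin for Ptprv and Zfp365, and the Epha2 bars of mutant cells are below those of WT cells.

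Among the genes of nuclear and RNA regulation, Zfp365 changed most. Zfp365 encodes a zinc finger protein whose human counterpart is known for its part in genome stability. It had 453 and 476 CPM in mutant doxorubicin libraries, against 41.5 and 38.9 CPM in mutant control libraries, an 11.6-fold rise (log2 fold change 3.53 ± 0.08 SE, adjusted p = 3.4e-18). In WT cells it had 487 and 430 CPM with doxorubicin, against 49.3 and 44.1 CPM in controls, a 9.82-fold rise (3.30 ± 0.08, adjusted p = 5.58e-18). Treated and control libraries lay far apart in both genotypes, and the treated libraries of mutant and WT cells overlapped. By size of response it stood 230th of 12255 genes in mutant cells and 286th in WT cells. Its RefSeq promoter window, shown because its response was the largest of those with more than a few counts in every group, is on chr10:67912613-67912912, minus strand, GRCm38.p6. Capitals mark a TATA box, a GC box read on the other strand, and an E-box.
Zfp365: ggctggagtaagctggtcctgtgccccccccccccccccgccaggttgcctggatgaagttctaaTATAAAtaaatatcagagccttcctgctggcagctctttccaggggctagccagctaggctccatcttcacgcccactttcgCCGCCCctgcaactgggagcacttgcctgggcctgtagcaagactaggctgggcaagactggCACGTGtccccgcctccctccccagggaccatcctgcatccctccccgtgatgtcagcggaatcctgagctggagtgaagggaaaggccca

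Zmat3 encodes a zinc finger protein that binds RNA and acts on splicing and mRNA stability. It had 141 CPM in each mutant doxorubicin library, against 62.8 and 58.5 CPM in mutant controls (2.33-fold, log2 fold change 1.22 ± 0.08, adjusted p = 1.89e-11). WT cells gave 123 and 139 CPM with doxorubicin, against 58.1 and 60.0 CPM without (2.22-fold, 1.15 ± 0.08, adjusted p = 3.7e-11). This was the smallest response among the 8 genes that rose, and the one with the smallest SE, and the control libraries of both genotypes overlapped. Of its relatives in the Zmat family only Zmat1 and Zmat2 had enough counts. Zmat1 fell in mutant cells (-0.35 ± 0.13) and in WT cells (-0.58 ± 0.13). Zmat2 rose in mutant cells by 0.24 ± 0.08 and had 0.12 ± 0.08 in WT cells, which did not pass.

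Phlda3 encodes a small protein with a pleckstrin homology domain that competes with the kinase Akt for membrane lipids. It had 3.32 and 4.43 CPM in mutant doxorubicin libraries, against 2.88 and 2.91 CPM in mutant controls, a log2 fold change of 0.42 with a 95% interval of 0.012 to 0.83 (adjusted p = 0.0769). In WT cells it had 4.37 and 3.91 CPM with doxorubicin, against 3.94 and 3.02 CPM without (0.26, interval -0.12 to 0.64, adjusted p = 0.235). Treated and control libraries overlapped in WT cells and not in mutant cells, and counts were between 83 and 132 in all 8 libraries. Both intervals lie below a 2-fold rise. In mutant cells the call changed when mutant doxorubicin library A was left out (0.61, adjusted p = 0.0275). Its promoter window (chr1:135765835-135766134, plus strand, GRCm38.p6) is shown because its last 8 bases, GAACATGT, match the opening 8 positions of the p53 half-site consensus and the window ends there. This partial match is not counted as a half-site, and how often other windows end in one was not examined. The other capitals are GC boxes.
Phlda3: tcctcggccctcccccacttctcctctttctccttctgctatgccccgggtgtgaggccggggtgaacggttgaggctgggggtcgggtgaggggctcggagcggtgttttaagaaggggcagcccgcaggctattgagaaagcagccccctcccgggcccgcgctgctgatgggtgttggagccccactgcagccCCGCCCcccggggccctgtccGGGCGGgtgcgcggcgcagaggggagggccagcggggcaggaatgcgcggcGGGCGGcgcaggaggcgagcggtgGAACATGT

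Other genes of the Akt branch moved in both directions. Of 7 tested genes in a list of Phlda relatives, Akt kinases and their phosphatases, 1 rose and 3 fell in mutant cells (median -0.16), and 1 rose and 3 fell in WT cells (median -0.24). All genes tested gave 28.3% and 29.3% higher, and 25.9% and 28.1% lower, in mutant and in WT cells. Phlda1 rose by 0.71 ± 0.08 in mutant cells and 0.73 ± 0.08 in WT cells. Phlpp1, a phosphatase gene that acts on Akt, fell by 1.39 ± 0.10 and 1.23 ± 0.09, and its relative Phlpp2 by 0.86 ± 0.21 and 0.89 ± 0.20, in mutant and in WT cells.

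Psrc1 encodes a microtubule-binding protein of the mitotic spindle. It had 27.2 and 32.3 CPM in mutant doxorubicin libraries, against 8.58 and 8.57 CPM in mutant controls (3.47-fold, log2 fold change 1.80 ± 0.11, adjusted p = 7.07e-12). WT cells had 28.7 and 28.4 CPM with doxorubicin, against 8.66 and 8.92 CPM without (3.25-fold, 1.70 ± 0.11, adjusted p = 1.08e-11). No treated library came near a control library. Most other spindle genes went the other way: of 17 tested partners, 12 fell and 4 rose in mutant cells (median -0.48), and 13 fell and 4 rose in WT cells (median -0.72). The shares of all genes that fell were 25.9% and 28.1%. Tpx2, a spindle assembly factor, fell by 1.27 ± 0.08 and 1.54 ± 0.08, Kif2c, a microtubule-depolymerising kinesin, by 1.42 ± 0.28 and 1.72 ± 0.28, and Cdca8, a chromosomal passenger subunit, by 0.96 ± 0.19 and 1.24 ± 0.18, in mutant and in WT cells. Mapre3, which encodes a protein of growing microtubule ends, rose by 1.87 ± 0.35 and 2.00 ± 0.32. With doxorubicin, 7 of the 17 were called higher in mutant than in WT cells, against 3.92% of all genes, and Psrc1 was not among the called genes.

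The enzyme genes Abhd4 and Ephx1 rose by different amounts. Abhd4 encodes a hydrolase that acts on N-acyl phospholipids on the way to N-acylethanolamines. It had 7.72 and 7.79 CPM in mutant doxorubicin libraries, against 1.06 and 1.32 CPM in mutant controls (6.48-fold, log2 fold change 2.70 ± 0.18, adjusted p = 4.48e-11). WT cells had 8.68 and 8.61 CPM with doxorubicin, against 1.37 and 1.47 CPM without (6.05-fold, 2.60 ± 0.17, adjusted p = 2.47e-11). Treated libraries of a genotype were nearly equal, and well apart from the controls. RefSeq gives this gene 2 start sites. The second window (chr14:54259033-54259332, plus strand, GRCm38.p6) is shown because it was the only one among the 9 windows of these genes with a full p53 half-site consensus, GGGCTTGTTT, at bases 2 to 11 from the start. It is in capitals, with a GC box.
Abhd4: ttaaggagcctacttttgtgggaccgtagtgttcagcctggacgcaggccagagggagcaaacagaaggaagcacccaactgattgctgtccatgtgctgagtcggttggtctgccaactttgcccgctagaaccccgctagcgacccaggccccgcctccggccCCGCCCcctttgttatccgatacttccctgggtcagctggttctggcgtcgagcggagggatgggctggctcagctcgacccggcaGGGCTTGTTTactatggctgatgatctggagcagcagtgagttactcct

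Among 16 tested genes of related hydrolases and N-acylethanolamine enzymes, 4 rose and 1 fell in mutant cells (median 0.48), and 4 rose and 1 fell in WT cells (median 0.19). This was no larger a share of rises than among all genes (28.3% in mutant and 29.3% in WT cells). Abhd14a rose by 1.43 ± 0.30 and 1.17 ± 0.27, Abhd5, a cofactor of fat breakdown, by 0.86 ± 0.09 and 0.94 ± 0.09, and Abhd13 by 0.77 ± 0.08 and 0.95 ± 0.08, in mutant and in WT cells. Abhd14b rose in WT cells (0.72 ± 0.22) and had 0.59 ± 0.26 in mutant cells, which did not pass.

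Ephx1 encodes microsomal epoxide hydrolase, which turns reactive epoxides into diols. It had 19.4 and 20.1 CPM in mutant doxorubicin libraries, against 6.24 and 5.32 CPM in mutant controls (3.41-fold, log2 fold change 1.77 ± 0.12, adjusted p = 5.67e-11). WT cells had 26.9 and 23.4 CPM with doxorubicin, against 6.69 and 7.10 CPM without (3.64-fold, 1.86 ± 0.11, adjusted p = 8.82e-12). Each mutant group lay below the matching WT group. A pseudogene, Gm36961, overlaps Ephx1 on the same strand in the GENCODE annotation of GRCm38. It is not among the gene names counted, so any reads from it may have been assigned to Ephx1. Of 10 tested drug-metabolising genes, 4 rose and 2 fell in mutant cells (median 0.43), and 4 rose and 1 fell in WT cells (median 0.29). For all genes the shares were 28.3% and 29.3% higher, and 25.9% and 28.1% lower. Cbr3, a carbonyl reductase gene, rose by 2.27 ± 0.31 and 1.34 ± 0.30, and Gstm2, a glutathione transferase gene, by 0.68 ± 0.24 and 0.88 ± 0.22, in mutant and in WT cells. Cyp1b1, a cytochrome P450 gene, fell by 1.01 ± 0.08 and 1.02 ± 0.08. Gsta4, another glutathione transferase gene, fell in mutant cells (-1.25 ± 0.41) and had -0.36 ± 0.37 in WT cells, which did not pass.

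Epha2, Cd80 and Ptprv encode proteins of the cell surface. Epha2 is a receptor tyrosine kinase for ephrin-A ligands on neighbouring cells. It had 16.2 and 19.5 CPM in mutant doxorubicin libraries, against 5.25 and 4.44 CPM in mutant controls (3.69-fold, log2 fold change 1.88 ± 0.14, adjusted p = 4.06e-10). WT cells had 37.8 and 45.2 CPM with doxorubicin, against 11.1 and 8.86 CPM without (4.19-fold, 2.07 ± 0.12, adjusted p = 7.03e-12). The 4 groups did not overlap, in the order WT with doxorubicin, mutant with doxorubicin, WT control and mutant control. Its promoter window (chr4:141300971-141301270, plus strand, GRCm38.p6) is shown because Epha2 is the gene of the 9 with a called difference between genotypes in both conditions. Capitals mark the cyclic AMP response element TGACGTCA and a GC box.
Epha2: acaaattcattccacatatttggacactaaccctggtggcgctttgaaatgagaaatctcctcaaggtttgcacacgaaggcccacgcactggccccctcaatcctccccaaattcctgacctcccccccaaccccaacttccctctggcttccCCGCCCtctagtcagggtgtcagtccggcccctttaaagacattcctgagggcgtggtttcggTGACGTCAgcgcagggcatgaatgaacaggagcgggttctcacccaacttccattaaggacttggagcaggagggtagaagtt

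Other Eph receptors and ephrins rose about as often as all genes did. Of 14 tested, 4 rose and 3 fell in mutant cells (median -0.21), and 5 rose and 3 fell in WT cells (median -0.15), where 28.3% and 29.3% of all genes rose and 25.9% and 28.1% fell. Efna1, an ephrin-A ligand that binds Epha2, rose by 1.87 ± 0.42 and 2.16 ± 0.40 in mutant and in WT cells. Efnb3, an ephrin-B ligand gene, had 17 counts over the mutant doxorubicin libraries against 3 over the mutant controls, and 21 counts over the WT doxorubicin libraries against 2 over the WT controls, and was called in both. The receptor genes Ephb4 and Epha3 fell, Ephb4 by 1.44 ± 0.20 and 1.57 ± 0.19 and Epha3 by 1.20 ± 0.12 and 1.53 ± 0.12.

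Endothelial and epithelial cells also express Epha2. Among 7 endothelial markers, Tie1 was at 0 in all 8 libraries and Pecam1 had at most 2 counts, and the sum was 5.72 to 6.29 CPM in mutant doxorubicin libraries, 1.61 to 1.93 CPM in mutant controls, 6.92 to 11.3 CPM in WT doxorubicin libraries and 2.16 to 3.23 CPM in WT controls. Tek, the angiopoietin receptor gene, was the marker of the 3 tested that rose. It had 109 and 117 counts in mutant doxorubicin libraries, against 15 and 10 in mutant controls, and 285 and 179 counts in WT doxorubicin libraries, against 21 and 40 in WT controls, and was lower in mutant than in WT cells with doxorubicin (-0.74 ± 0.21, adjusted p = 0.0309). The 7 epithelial markers summed to at most 0.847 CPM in any library, with Cldn4 at 0 in all. The part of other cell types in the Epha2 values was not tested.

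Cd80 is a ligand of the T cell receptors CD28 and CTLA-4 and is best known from antigen-presenting cells. It had 36 and 44 counts (1.44 and 1.74 CPM) in mutant doxorubicin libraries, against 10 and 8 counts (0.343 and 0.271 CPM) in mutant controls. In WT cells it had 65 and 63 counts (2.15 and 1.97 CPM) with doxorubicin, against 5 and 14 counts (0.186 and 0.411 CPM) without. All treated libraries were above all controls, at a low level throughout. The log2 fold change was 2.36 ± 0.38 in mutant cells (adjusted p = 1.75e-05) and 2.72 ± 0.35 in WT cells (adjusted p = 9.85e-07). The WT value rested in part on 1 control library: without WT control B it was 3.44, and without WT control A 2.31, and it was called in both.

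Of 7 other tested T cell costimulatory and inhibitory ligands, 5 rose and 1 fell in each genotype (median 0.94 in mutant and 1.28 in WT cells). The shares of all genes that rose were 28.3% in mutant and 29.3% in WT cells. Tnfsf4, the OX40 ligand gene, had 71 counts over the mutant doxorubicin libraries against 7 over the mutant controls, and 81 in WT cells with doxorubicin against 3 without. Cd274, which encodes PD-L1, rose by 0.94 ± 0.31 in mutant and 1.85 ± 0.31 in WT cells, and Tnfsf9 by 1.39 ± 0.29 and 1.28 ± 0.29. Cd40, called in both genotypes, had 35 counts over the mutant doxorubicin libraries against 14 over the mutant controls, and 23 in WT cells with doxorubicin against 3 without. Tnfsf4 and Cd40 had too few control counts to pass the filter without their treated libraries, so a difference was built into their being tested. Cd86, the closest relative of Cd80, had 2 counts over the mutant doxorubicin libraries, 7 over the mutant controls and 0 in each WT group.

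Leukocyte markers were present beside Cd80. All 13 macrophage and leukocyte markers in the table had counts, with a summed level of 54.5 to 61.2 CPM in mutant doxorubicin libraries, 46.4 to 47.8 CPM in mutant controls, 51.9 to 52.7 CPM in WT doxorubicin libraries and 37.6 to 37.8 CPM in WT controls. Of 12 tested, 1 rose in mutant cells and 6 rose in WT cells, and none fell, where 28.3% and 29.3% of all genes rose. Cd14, a bacterial lipid receptor gene of macrophages, rose in both, by 3.15 ± 0.39 in mutant and 2.89 ± 0.32 in WT cells. It had 58 to 73 counts in mutant doxorubicin libraries, against 8 to 9 in mutant controls, and 98 to 142 counts in WT doxorubicin libraries, against 7 to 25 in WT controls. The pan-leukocyte gene Ptprc had 0.28 ± 0.17 in mutant cells, which did not pass, and 0.65 ± 0.17 in WT cells, which did. It averaged 8.70 ± 1.90 CPM in mutant doxorubicin libraries and 7.15 ± 0.953 CPM in mutant controls, and 7.05 ± 0.897 CPM in WT doxorubicin libraries and 4.53 ± 0.845 CPM in WT controls (SD, n = 2 each). Among 12 B cell and dendritic cell markers, 6 were at 0 in all 8 libraries, the defining Ms4a1, Flt3 and H2-Ab1 among them, and the sum stayed between 0.297 and 1.07 CPM. The part of leukocytes in the Cd80 response was not tested.

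Ptprv encodes a receptor-type tyrosine phosphatase known in mice from bone cells and from p53-induced cell cycle exit. It had 37 and 30 counts (1.48 and 1.19 CPM) in mutant doxorubicin libraries, against 0 and 1 counts in mutant controls. In WT cells it had 37 and 32 counts (1.23 and 1.00 CPM) with doxorubicin, against 0 and 1 counts without. It was thus near or under the limit of detection in control libraries and clearly counted in treated ones, with almost the same values in both genotypes. The ratio of summed counts was 78.1 in mutant cells (95% counting interval 13.6 to 3132) and 67.7 in WT cells (11.8 to 2713), and the test passed in both (adjusted p = 3.42e-07 and 6.2e-07). The fitted log2 fold change was 5.97 in mutant and 5.75 in WT cells and moved with the control libraries: without control A of the genotype it was 5.13 and 5.05, without control B 8.28 and 7.98, and it was called in each. An antisense gene, Gm10535, overlaps Ptprv in the GENCODE annotation and is not among the gene names counted. Whether counting used strand was not given in the sources used here, so reads of both cannot be told apart.

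Of 7 osteoblast and bone markers, 2 were tested, Runx2 and Phex, and both fell in both genotypes. The other 5, Alpl, Bglap and Ibsp among them, had at most 7 counts in any library. Runx2, a transcription factor gene, made up most of the sum of the 7, which was 35.9 to 41.7 CPM in mutant doxorubicin libraries and 79.5 to 85.8 CPM in mutant controls, and 35.8 to 36.1 CPM in WT doxorubicin libraries and 74.5 to 80.5 CPM in WT controls. The part of bone cells in the Ptprv values was not tested. Of 14 other tested receptor-type tyrosine phosphatases, 4 rose and 4 fell in mutant cells (median -0.076), and 3 rose and 7 fell in WT cells (median -0.18). Beside these stand 28.3% and 29.3% of all genes that rose, and 25.9% and 28.1% that fell. Ptprj rose by 1.54 ± 0.27 and 1.42 ± 0.27, Ptpre rose by 0.89 ± 0.14 and 1.28 ± 0.13, and Ptprm fell by 1.01 ± 0.09 and 0.68 ± 0.09, in mutant and in WT cells. Ptpro rose in mutant cells (1.88 ± 0.43) and had 0.70 ± 0.46 in WT cells, which did not pass.

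**Figure D2:**
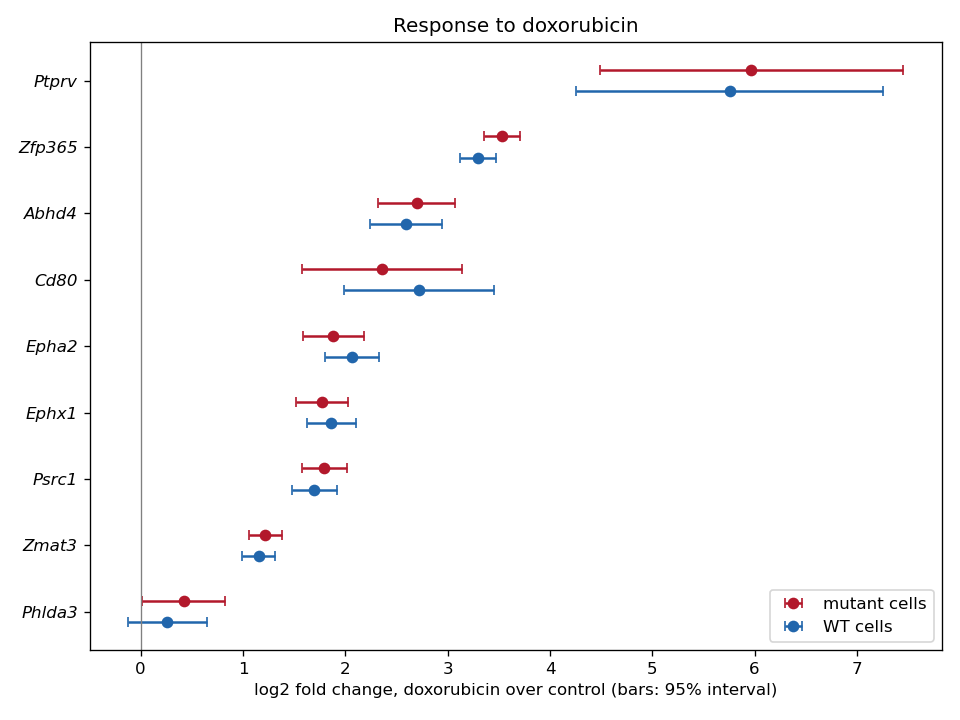
Log2 fold change of doxorubicin over control for each of the 9 genes, in mutant cells (red) above WT cells (blue), with 95% intervals from the fit. The values run from 0.42 and 0.26 for Phlda3 to 3.53 and 3.30 for Zfp365, while the Ptprv points rest on 1 control count per genotype and their position depends on the fit.

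Other p53-activated genes gave the frame for these responses. Of 54 listed, 45 were tested, and 43 rose in mutant cells and 44 rose in WT cells, where 1, Mdm4, fell (-0.39 ± 0.15). Over all genes tested, 28.3% and 29.3% rose. Some of the 45, Sesn2, Gdf15 and Tap1 among them, had too few control counts to pass the filter without their treated libraries, so a difference was built into their being tested. Tap1 had 5 to 7 counts in mutant control libraries and 8 to 18 in WT controls. In mutant cells Mdm4 (0.05 ± 0.16) and Ntn4 (0.61 ± 0.39) did not pass. The medians of this list were 1.99 in mutant and 2.02 in WT cells, close to those of the 9 genes. By the mean of both genotypes its largest responses were those of Fas (4.72 ± 0.16 and 4.48 ± 0.15), Pmaip1 (4.34 ± 0.08 and 4.21 ± 0.08), Tap1 (4.48 ± 0.30 and 3.90 ± 0.24) and Perp (4.05 ± 0.10 and 4.27 ± 0.10), in mutant and in WT cells. In WT cells alone Gdf15, a secreted stress cytokine gene, was above Perp, at 4.31 ± 0.49, and it had 3.42 ± 0.55 in mutant cells. Its lead over Perp was smaller than its SE. Gdf15 had 2 to 3 counts in WT control libraries and 1 to 4 in mutant controls, so its position depends on the fit.

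**Figure D3:**
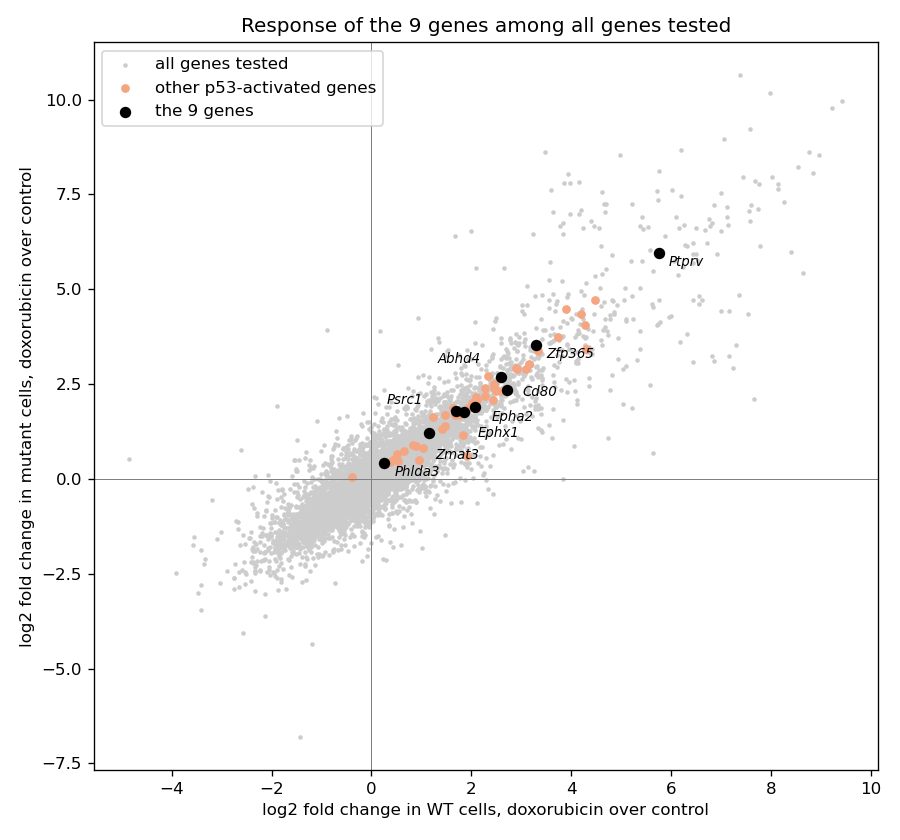
Log2 fold change of doxorubicin over control in mutant cells (vertical) against WT cells (horizontal) for all 12255 genes tested (grey), the 45 other p53-activated genes (orange) and the 9 genes (black, named). All black points but that of Phlda3, near the origin, lie above 1 on both axes.

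Whether the response to doxorubicin depended on the genotype is the question named by the study's title. For none of the 9 genes did the difference between the responses pass edgeR's test, which called 0.0734% of all genes, and none passed in DESeq2 or limma-voom. At an unadjusted p under 0.05 there was 1 gene in edgeR, Zfp365, and 0 in DESeq2 and in limma-voom, while 5.69% of all genes passed that unadjusted limit in edgeR. The mutant minus WT difference for Zfp365 was 0.24 on the log2 scale (95% interval 0.0045 to 0.47), with an adjusted p of 0.856 in edgeR. The intervals of the mutant minus WT difference were -0.16 to 0.29 for Zmat3, -0.22 to 0.41 for Psrc1, -0.44 to 0.26 for Ephx1, -0.58 to 0.22 for Epha2, -0.45 to 0.65 for Abhd4 and -0.40 to 0.72 for Phlda3. For Cd80 (-1.55 to 0.83) and Ptprv (-4.37 to 4.80) counts were low and the intervals reached beyond a 2-fold difference.

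Epha2 differed between the genotypes in level. With doxorubicin it averaged 17.9 ± 2.32 CPM in mutant cells and 41.5 ± 5.28 CPM in WT cells, so that mutant cells had 43.1% of the WT level (log2 fold change -1.21 ± 0.12, adjusted p = 5.01e-07). Without the drug it averaged 4.84 ± 0.572 CPM in mutant cells and 9.97 ± 1.56 CPM in WT cells (SD, n = 2 each), or 48.9% (-1.03 ± 0.15, adjusted p = 7.71e-05). Each mutant library was below each WT library of the same treatment. Among all genes, 3.82% were called lower in mutant cells with doxorubicin and 3.17% without, and Epha2 was 1 of 2 of the 9 genes called lower with the drug and the only one without it.

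Ephx1 was the other gene called with doxorubicin, at 19.7 ± 0.533 CPM in mutant cells and 25.2 ± 2.44 CPM in WT cells (SD, n = 2 each), 78.5% of the WT level (-0.35 ± 0.10, adjusted p = 0.0425). Without the drug it had -0.26 ± 0.13 (adjusted p = 0.37). The call with doxorubicin was lost in 10 of 17 alternatives, among them DESeq2 (adjusted p = 0.112), the fit with the 4 compared libraries alone (0.0599) and 7 of the 8 fits that left out a library. Only without WT doxorubicin library B was it kept (-0.44, adjusted p = 0.0198). Without WT doxorubicin library A the adjusted p was 0.375, without mutant doxorubicin library A 0.225 and without mutant doxorubicin library B 0.123, and without any of the 4 control libraries it was 0.0505 to 0.0529.

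The other 7 genes were not called between the genotypes in either condition. Their 95% intervals for mutant against WT with doxorubicin were -0.052 to 0.26 for Zmat3, -0.13 to 0.17 for Zfp365, -0.14 to 0.26 for Psrc1, -0.44 to 0.13 for Abhd4, -0.48 to 0.29 for Phlda3, -0.95 to 0.20 for Cd80 and -0.45 to 0.97 for Ptprv. Without the drug, Zfp365 had -0.22 (interval -0.39 to -0.044, adjusted p = 0.164). Of the 45 other p53-activated genes, 3 were called lower in mutant cells with doxorubicin (Cdkn1a, Pmaip1 and Perp), and 4 lower and 3 higher without it, where 2.75% of all genes were called higher. Perp had -0.95 ± 0.08 with the drug and -0.73 ± 0.11 without, Pmaip1 -0.44 ± 0.07 and -0.57 ± 0.07, and Cdkn1a -0.45 ± 0.09 and -0.49 ± 0.11.

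Sex-linked expression differed between the same libraries. Xist, which coats the inactive X chromosome, averaged 522 ± 74.5 CPM in mutant and 0.304 ± 0.102 CPM in WT cells with doxorubicin, and 233 ± 29.4 CPM in mutant and 0.277 ± 0.0236 CPM in WT cells without it (SD, n = 2 each). Xist rose with doxorubicin in mutant cells (1.16 ± 0.09) and had 0.13 ± 0.54 in WT cells, which did not pass. The 4 Y-linked genes listed were lower in mutant cells in both conditions. With and without doxorubicin, Kdm5d had -2.96 ± 0.11 and -3.08 ± 0.10, Ddx3y -2.95 ± 0.08 and -2.88 ± 0.08, and Uty -2.85 ± 0.12 and -2.93 ± 0.12. The 9 genes are all on autosomes, and the genotype cannot be told apart from this difference. Of 4 tested neural markers, 1 was called higher and 1 lower in mutant cells with doxorubicin, and 2 higher and 1 lower without it: Map2, a microtubule protein gene, had 1.54 ± 0.10 and 1.33 ± 0.09, and Nes, an intermediate filament gene, -0.43 ± 0.11 and -0.40 ± 0.11. The 7 neural markers had a summed level of 44.9 to 45.9 CPM in mutant and 34.4 to 36.2 CPM in WT cells with doxorubicin, and 59.3 to 59.5 CPM in mutant and 33.4 to 34.1 CPM in WT cells without it, and their part in the Epha2 and Ephx1 values was not tested.

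**Figure D4:**
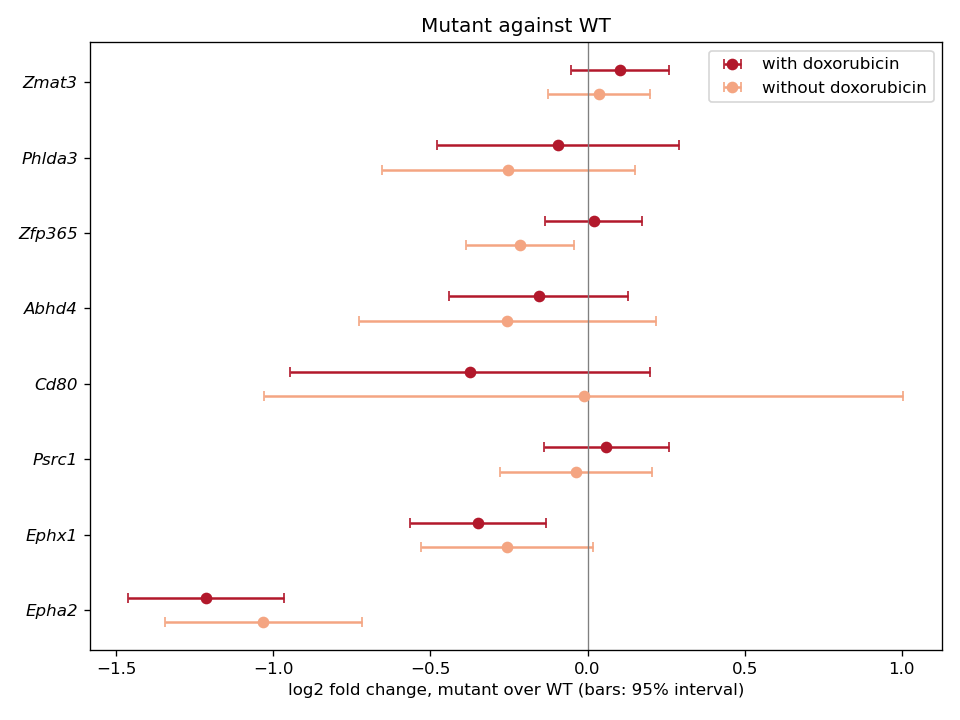
Log2 fold change of mutant over WT cells for 8 of the genes, with doxorubicin (red) above without (orange), and 95% intervals from the fit. Ptprv is left out because its control groups held 1 count each, and the 2 Epha2 points lie lowest, at -1.21 and -1.03.

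One of the adjacent genes of Epha2 differed in the same directions. Neighbours were taken from the RefSeq gene order of GRCm38.p6, 5 tested genes on each side, a comparison chosen after the Epha2 values were seen. Arhgef19, which encodes a guanine nucleotide exchange factor and stands next to Epha2 on chromosome 4, had 19 to 20 counts in mutant doxorubicin libraries, against 3 in each mutant control, and 60 to 71 counts in WT doxorubicin libraries, against 9 to 17 in WT controls. Arhgef19 had too few control counts to pass the filter without its treated libraries, so a difference was built into its being tested. It rose with doxorubicin (2.87 in mutant cells, adjusted p = 8.4e-05, and 2.30 in WT cells, adjusted p = 3.75e-06) and was lower in mutant than in WT cells with the drug (-1.44, adjusted p = 0.0042) and without it (-2.01, adjusted p = 0.0402). Zbtb17, the adjacent tested gene on the other side, was called in none of these comparisons (-0.61 and -0.82 for doxorubicin in mutant and in WT cells, 0.38 and 0.17 for mutant against WT with and without it). Of the other 9 neighbours, Necap2 (-0.43) and Fblim1 (-0.51) were also called lower in mutant cells with doxorubicin, and none was called without it. With doxorubicin this made 3 of the 10 neighbours lower and 0 higher, where 3.82% of all genes were lower. Whether the share of neighbours differs from that of all genes was not tested. Over the 10 neighbours the median of mutant against WT was 0.11 with and 0.018 without doxorubicin.

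**Figure D5:**
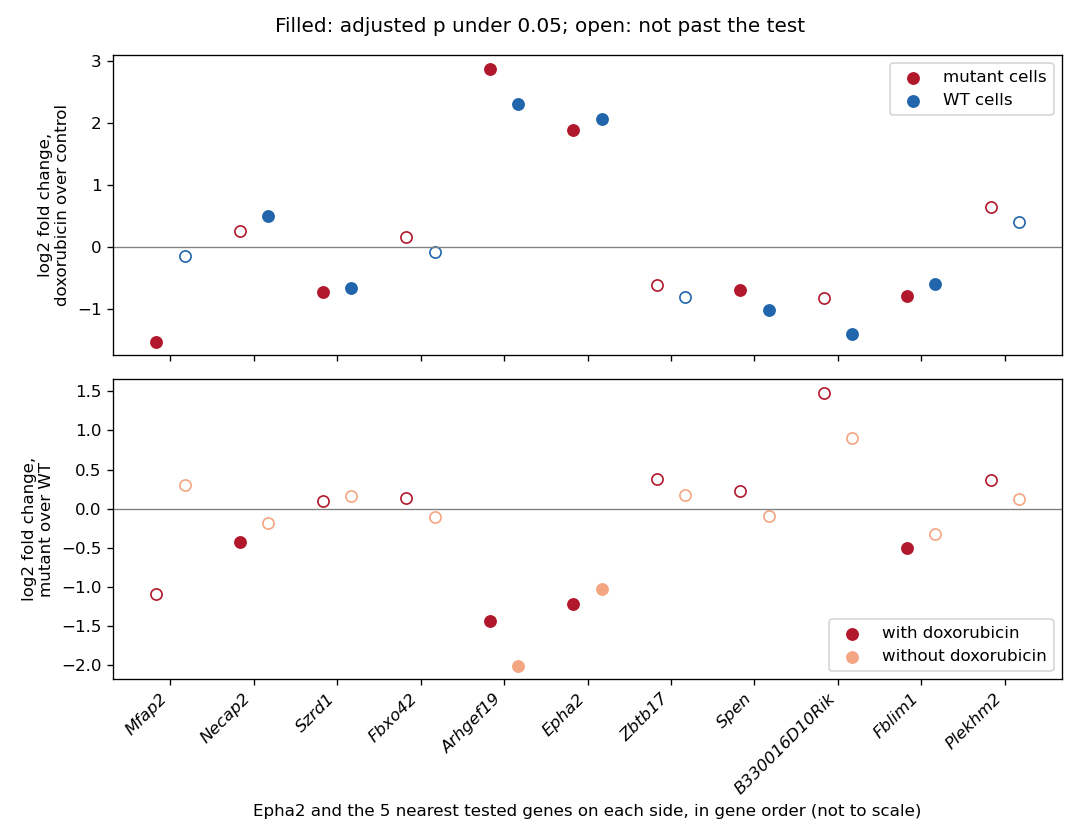
Epha2 and its 5 nearest tested genes matched in RefSeq on each side in gene order, with log2 fold changes of doxorubicin over control in mutant (red) and WT cells (blue) in the upper panel, and of mutant over WT with (red) and without doxorubicin (orange) in the lower panel. Filled points passed the test, and Arhgef19 and Epha2 are the only pair filled in all 4 comparisons, upward in the upper and downward in the lower panel.

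Neighbours of the other genes were examined in the same way. Over all 89 distinct neighbours, 24 rose in mutant cells and 24 rose in WT cells, and 9 rose at least 2-fold in both (10.1%), near the shares among all genes (10.9% for the last). Of the 18 directly adjacent tested genes, 4 rose in mutant cells (22.2%) and 5 in WT cells (27.8%), under the shares among all genes. Of these, 4 rose at least 2-fold in both genotypes (22.2%), and whether that share differs from the one among all genes was not tested. They were 4930429B21Rik beside Zmat3 (2.05 in mutant and 2.17 in WT cells), Celsr2 beside Psrc1 (2.95 and 2.58), Ptpn7 beside Ptprv (2.58 and 2.37) and Arhgef19. Ptpn7 had 15 to 22 counts in mutant doxorubicin libraries and 1 to 6 in mutant controls. In WT cells it had 24 to 25 with doxorubicin and 2 to 7 without. Ptpn7 and Arhgef19 had too few control counts to pass the filter without their treated libraries, so a difference was built into their being tested. Celsr2, an adhesion receptor gene, had 68 to 93 counts in mutant doxorubicin libraries, against 9 to 15 in mutant controls, and 54 to 70 counts in WT doxorubicin libraries, against 9 to 11 in WT controls.

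Promoter windows were available in RefSeq (GRCm38.p6) for 7 of the 9 genes, in 9 windows of 300 bases (250 before the start and 50 after it). Motifs were searched on both strands. The p53 half-site consensus was in 1 of the 9 windows, that of Abhd4 shown above, and in 8.36% of 32851 windows of all genes. The AP-1 site TGANTCA was in the Cd80 window and in 7.81% of all windows, the response element TGACGTCA in the Epha2 window and in 1.79%, and the E-box CACGTG in the Zfp365 window and in 7.15%. GGGCGG was in the windows of Phlda3, Ephx1, Psrc1, Epha2, Zfp365 and Abhd4 and in 35.7% of all, CCAAT in those of Ephx1, Psrc1 and Abhd4 and in 37.4%, and TATAAA in those of Ephx1, Zfp365 and Cd80 and in 13.6%. In the first Abhd4 window 2 CCAAT matches on opposite strands overlap. A match describes letters only, and p53 sites outside these windows were not searched.

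The genes closest in pattern to each of the 9 were found by the Euclidean distance between centred log2 CPM over the 8 libraries, among 12255 genes. For Zmat3 they were Gkap1 (distance 0.146) and Nt5dc3 (0.157), for Zfp365 Fam122b (0.27) and Fam212b (0.291), itself on the list of other p53-activated genes, and for Abhd4 Car5b (0.193) and Glt8d2 (0.208). Ypel5 (0.179) and Lrrc57 (0.192) were nearest to Psrc1, and Etfdh (0.212) and Celf4 (0.214) to Ephx1. Phlda3 was nearest to Senp8 (0.248) and Chmp7 (0.287), and Cd80 to Il7 (0.465), which encodes a lymphocyte growth factor, and Unc80 (0.592).

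Epha2 and Ptprv had no close match by this measure. The nearest to Epha2 were Psmb9 (0.591), with at most 17 counts in a library, and Fgf16 (0.748), a growth factor gene with 46 to 52 counts in mutant doxorubicin libraries, 13 to 14 in mutant controls, 95 to 108 in WT doxorubicin libraries and 20 to 21 in WT controls. The nearest to Ptprv were Dgka (0.65), a diacylglycerol kinase gene, and 9530053A07Rik (0.668). Low counts draw values together through the prior count of 2, so that distances among such genes are less certain.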

How the data were processed

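Raw counts per gene name for 8 libraries were deposited by the authors, with no normalization. Per the submitters' processing notes, Bowtie2, HTSeq and the mm9 build were used; the annotation, strand setting and treatment of multi-mapping reads are not given in the sources used here. The labels mention an exome-capture RNA kit as well as sequencing of 3' ends, so levels were not compared between genes. Counts passing filterByExpr (minimum 10, total 15) were scaled by TMM and fitted in R 4.3.3 with edgeR 4.0.16's quasi-likelihood model, 1 coefficient per group over all 8 libraries (4 residual degrees of freedom), with Benjamini-Hochberg adjustment over all 12255 genes tested. SEs were computed as the log2 fold change over the root of the F statistic. Groups and replicate letters came from the sample titles. The 9 genes, the lists of related genes and the markers were chosen with earlier results of these data known. The text names the 9 genes, up to 4 called genes per list of relatives, and the 2 genes nearest in pattern to each; some listed genes are not reported here. Neighbouring genes, Gdf15 and single cell type markers were named after their values were seen. Alternatives used DESeq2 1.42.0, limma-voom (limma 3.58.1), other scalings, filters and thresholds, terms for the library letter, fewer libraries, and each library left out. The pipeline was checked on simulated counts.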

Additional observations from a re-analysis of the deposited data

How the results depend on the processing

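Of 763 recomputed log2 fold changes, over 45 results (9 genes in 5 comparisons) and 18 settings, 751 stayed on the same side of the threshold, 10 lost their call, 2 gained one and 0 called values changed sign. The 10 are Ephx1 in mutant against WT cells with doxorubicin, and the 2 are Phlda3 in mutant cells, called without mutant doxorubicin library A and at an adjusted p of 0.10. The 8 genes that rose were called in both genotypes in every setting that tested them; Cd80 and Ptprv were not tested with at least 5 CPM in 2 libraries. With doxorubicin, 2 of the 9 genes were called between genotypes, against 1 with upper-quartile factors, DESeq2 or the 4 compared libraries alone, and 1 to 2 with a library left out. For all genes, the difference between responses had 9 calls, against 18 in DESeq2, 4 in limma-voom, 48 with no filter, 5 with at least 5 CPM in 2 libraries, 18 at an adjusted p of 0.10, and 0 to 51 with a library left out. With the library letter as a replicate block it had 14 calls, and 0 with the letter within genotype, in edgeR, where 672 genes had an unadjusted p under 0.05. Leaving out WT control B or mutant control A also gave 0, with 686 and 579 genes at an unadjusted p under 0.05, and 51 came without WT doxorubicin B. Mutant against WT cells had 949 calls with doxorubicin, or 530 to 1214 with a library left out (530 without WT doxorubicin A, 538 and 615 without mutant doxorubicin A and B), and 726 without it, or 388 to 848 (388 without WT control B, 399 without either mutant control). No pairing by letter was seen: the correlation of A minus B over genes between treated and control libraries was 0.028 in mutant and -0.025 in WT cells. A weak shared effect could be missed by this measure, so it cannot tell whether a letter marks a shared culture or embryo. The replicate block changed no call among the 9 genes, and within genotype it gives no value for mutant against WT. A lone library is assumed to vary like the other groups. Low counts limit Cd80 and Ptprv.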
